A study of Mus musculus with 10 samples.

Results

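The 35 genes described here encode the chaperones, folding enzymes and stress sensors of the endoplasmic reticulum (ER) and the machinery that removes misfolded proteins from it. They were chosen by function and found among the 55414 genes of the count files by their Geneid, with the version removed. By role they fall into 5 sensors and signal carriers, 20 chaperones and folding enzymes, and 10 genes of ER-associated degradation. All 35 passed the filter on low counts and belong to the 17690 genes tested.

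RNAseq was carried out on poly(A)-selected RNA of interscapular brown adipose tissue (iBAT) from 5 Cre+ mice (genotype RetSat flox/flox Ucp1-Cre (+)) and 5 Cre- mice (RetSat flox/flox Ucp1-Cre (-)). Both groups were male C57BL/6J mice of 12 to 14 weeks, fed normal chow, and both carried the floxed RetSat alleles. The Ucp1 promoter drives Cre in the Cre+ mice, so RetSat is deleted only in cells that express Ucp1, and the other cells of the tissue keep it. The study asked what loss of RetSat, an oxidoreductase of the ER membrane, changes in the transcripts of this tissue.

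Proteins that enter the ER are folded there by chaperones, joined by disulfide bonds and fitted with sugar chains that report on their state of folding. When unfolded proteins accumulate, the sensors IRE1 (gene Ern1), PERK (gene Eif2ak3) and ATF6 start the unfolded protein response (UPR), which slows translation and raises the transcription of chaperones and of degradation genes. In brown adipocytes the ER also serves the synthesis of lipids and secreted proteins, and its quality control is known to respond to cold.

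Promoters of UPR target genes are known for short elements that ATF6 and XBP1 bind, and sequences that hold them are shown here because the values below are set against them. Promoter windows of the RefSeq annotation of GRCm38.p6, an older genome build than that of the counts, were available for 29 of the 35 members and 27025 genes in all. Both strands were searched, from 250 bases before to 50 bases after the start site, for the ER stress response element ERSE (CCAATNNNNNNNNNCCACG, with N for any base), for ERSE-II (ATTGGNCCACG) and for the core of the UPR element (TGACGTG). ERSE and ERSE-II are built of the same short parts, with CCAAT in the opposite orientation (ATTGG) and another spacing, and no member held both. Hspa5, which encodes BiP, the main Hsp70 chaperone of the ER, had an ERSE and the UPR element core, in capitals in the 250 bases before its start site (chr2:34771840-34772089, plus strand):
Hspa5: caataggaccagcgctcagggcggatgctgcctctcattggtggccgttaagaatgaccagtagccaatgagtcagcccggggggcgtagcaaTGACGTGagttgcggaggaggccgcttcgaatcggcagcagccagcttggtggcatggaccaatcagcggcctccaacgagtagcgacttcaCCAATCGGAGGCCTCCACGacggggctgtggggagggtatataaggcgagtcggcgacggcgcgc

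Exact ERSE copies were found in 9 of the 29 members (31.0%), against 0.137% of all genes in the promoter table. They were Hspa5, Hsp90b1, Calr, Canx, Pdia6, Dnajc3, Creld2, Syvn1 and Derl3. ERSE-II was found in Herpud1 and Dnajb11 (6.90% of the members, against 0.0444% of genes), and in Dnajb11 it lay after the start site. The core of the UPR element was found in Hspa5 alone among the members (3.45%, against 2.22% of genes). The pieces below hold an element in capitals, with 20 bases on each side, read 5′ to 3′ along the gene's own strand. Hsp90b1 had an element on either strand (chr10:86705618-86705676 and chr10:86705513-86705571, minus strand gene). The pieces of Canx (chr11:50325780-50325838, minus strand), Dnajc3 (chr14:118937807-118937865, plus strand), Syvn1 (chr19:6046512-6046570, plus strand) and Herpud1 (chr8:94386357-94386407, plus strand) are given for the glycoprotein chaperones, the J proteins and the degradation branch.
Hsp90b1, first: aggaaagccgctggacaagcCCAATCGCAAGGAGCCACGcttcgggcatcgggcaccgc
Hsp90b1, second: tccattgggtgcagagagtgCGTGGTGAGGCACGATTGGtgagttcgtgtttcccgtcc
Canx: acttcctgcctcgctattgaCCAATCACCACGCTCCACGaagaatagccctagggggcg
Dnajc3: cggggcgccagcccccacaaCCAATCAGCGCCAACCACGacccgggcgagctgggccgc
Syvn1: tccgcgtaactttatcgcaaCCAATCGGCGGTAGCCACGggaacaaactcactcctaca
Herpud1, ERSE-II: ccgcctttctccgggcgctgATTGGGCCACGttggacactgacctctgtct
A match describes the letters of these windows and does not show that a factor binds there.

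Total counts ranged from 96991071 to 110293494 in Cre+ mice and from 91903095 to 132499312 in Cre- mice, and levels are given as CPM, the counts scaled to a common library size and normalized by TMM. RetSat had 18.9, 20.7, 39.0, 18.01 and 23.0 CPM in Cre+ mice, against 151, 169, 156, 194 and 255 CPM in Cre- mice. Its log2 fold change (log2 FC), Cre+ over Cre-, was -2.95 (SE 0.24), with an adjusted p = 0.00402 by the quasi-likelihood test of edgeR. The groups did not overlap for RetSat, which shares 650 exon bases with Gm45053 on the other strand. The summed level of 10 brown adipocyte markers ranged from 8462 to 11430 CPM in Cre+ mice and from 8284 to 10400 CPM in Cre- mice. Skeletal muscle transcripts (12 markers) stood out in Cre+ 4 (284 summed CPM) and Cre- 2 (572 summed CPM), against 1.45 to 21.7 in the other 8 libraries. The identifiers of Cre+ 1, 4 and 5 carry an added letter that the labels do not explain. Results for the members are therefore also given without these libraries.

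edgeR called 0 of the 35 members at an adjusted p under 0.05, against 0.164% of all genes tested. DESeq2 called 0 of them as well, against 2.28% of all genes, and limma voom with quality weights 0, against 0.837%. At an unadjusted p under 0.05, edgeR found 1 member, Xbp1 (2.86% of the members), against 12.3% of all genes. The groups overlapped for every member, and 2.67% of all genes tested had groups that did not overlap. A list of 35 genes is too short to tell these shares apart. Without the muscle-rich libraries Cre+ 4 and Cre- 2, and without the lettered Cre+ libraries, 0 members were called, as in each of the 19 alternative fits.

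The intervals limit how large a difference could have been missed. The median log2 FC of the members, Cre+ over Cre-, was -0.02, and that of all genes tested was 0.00, with 11 members above 0 and 24 below. Their median SE was 0.08, against 0.15 for all genes tested. For 32 of the 35 members (91.4%), against 51.0% of all genes tested, the 95% interval lay within 0.5 of 0 on the log2 scale, and for 22 members it lay within 0.3. The exceptions were Xbp1, whose interval was above 0, and Sdf2l1 and Derl3, which were the members with the lowest levels. Summed over the 35 genes, Cre+ mice had 2740 ± 122.5 CPM and Cre- mice 2779 ± 123.7 CPM (SD, n = 5 each). In bulk tissue, fewer cells of a type and less RNA per cell cannot be told apart.

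**Figure D1:**
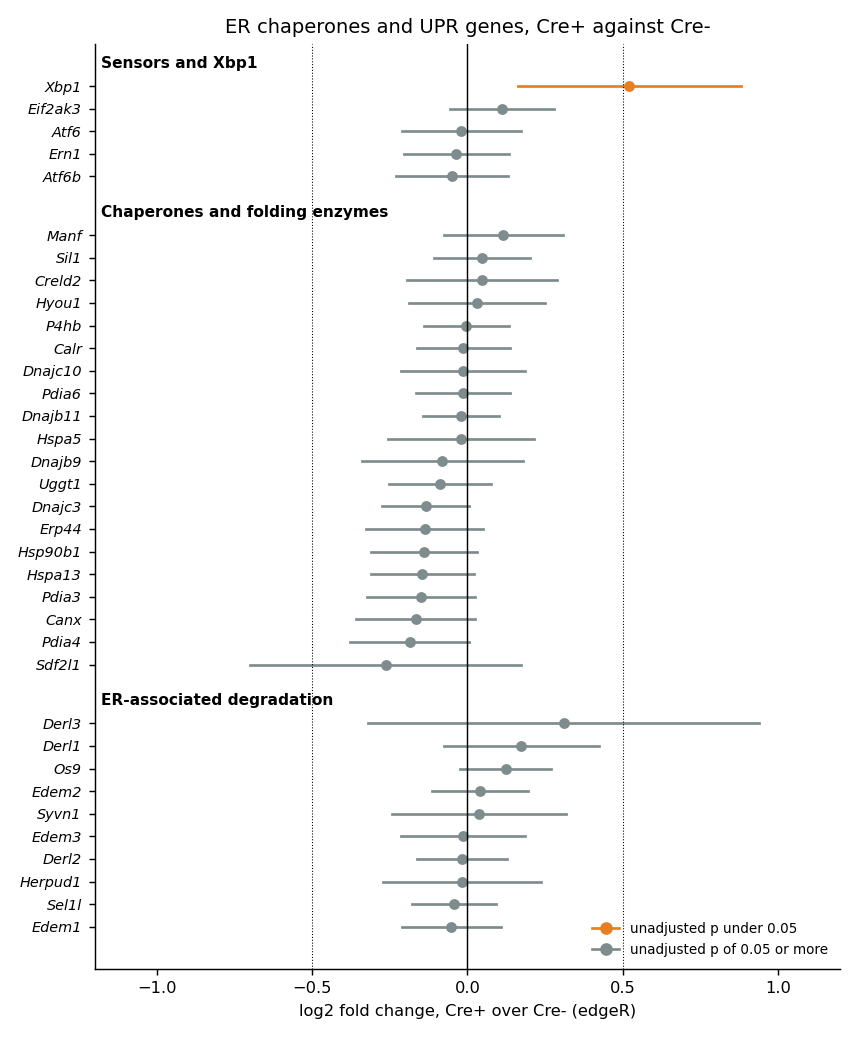
Log2 FCs of the 35 members, Cre+ over Cre-, by role, with 95% intervals from edgeR; dotted lines stand at 0.5 on either side of 0. Only the interval of Xbp1 lies clear of 0, and those of Xbp1, Sdf2l1 and Derl3 reach past the dotted lines.

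Levels of different genes were compared as CPM per kilobase of exon. Calr, a calcium-binding lectin chaperone, and Hspa5 were the most abundant members, with 92.6 ± 6.12 and 91.2 ± 11.5 CPM per kb in Cre+ mice and 93.4 ± 6.39 and 92.6 ± 13.0 CPM per kb in Cre- mice (SD, n = 5 each). These levels lay within 1 SD of each other. Derl1, a membrane protein of the channel through which proteins leave the ER, followed with 61.7 ± 7.22 CPM per kb in Cre+ mice and 54.7 ± 8.87 CPM per kb in Cre- mice. Hsp90b1 and Canx, a membrane-bound lectin chaperone, had 48.5 and 47.1 CPM per kb in Cre+ mice and 53.5 and 52.9 CPM per kb in Cre- mice. The sensors Ern1 and Eif2ak3 were near the lower end, with 2.06 and 2.41 CPM per kb in Cre+ mice and 2.11 and 2.23 CPM per kb in Cre- mice. Only Sdf2l1 (1.26 in Cre+ and 1.51 in Cre- mice) and Derl3 (0.193 in Cre+ and 0.154 in Cre- mice) were lower still.

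**Figure D2:**
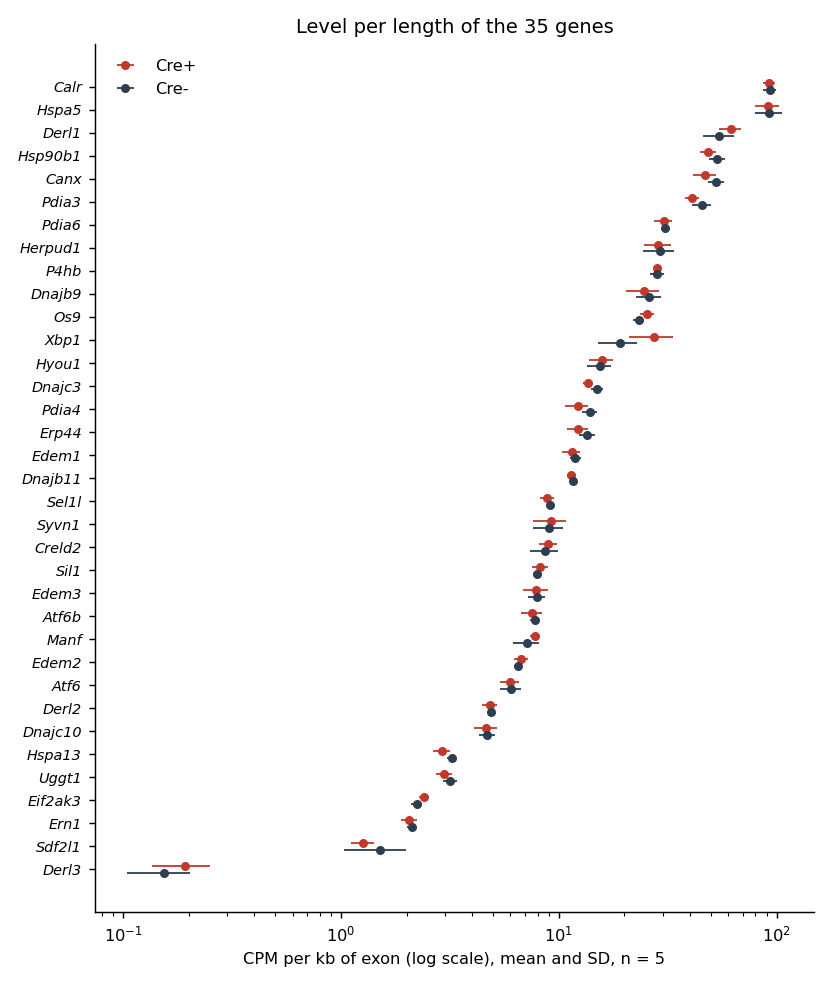
CPM per kb of exon (log axis) of the 35 members, as mean and SD of 5 Cre+ mice (red) and 5 Cre- mice (dark blue), ordered by the level in Cre- mice. Calr and Hspa5 stand at the top, near 92 CPM per kb in both groups, and Derl3 at the bottom.

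Among the sensors, Xbp1 had the largest log2 FC of all 35 members. It encodes a transcription factor whose mRNA is spliced by IRE1 into the form that makes the active protein. Its level was 71.9, 78.5, 123.5, 82.3 and 87.1 CPM in Cre+ mice, against 63.9, 59.5, 82.2, 49.3 and 54.0 CPM in Cre- mice. Cre+ 3 was far above the rest, 3 of 5 Cre+ mice lay above every Cre- mouse, and Cre- 3 reached into the Cre+ range. The log2 FC was 0.52 (SE 0.16, 95% interval 0.16 to 0.88), and it did not pass the test over all genes (unadjusted p = 0.00841, adjusted p = 0.242 from edgeR). Over the 19 alternative fits it ranged from 0.37 to 0.71, with adjusted p-values from 0.0605 (DESeq2) to 0.444 and an unadjusted p under 0.05 in all 19. Without Cre+ 3 it was 0.37, without the 3 lettered Cre+ libraries 0.71, and without both muscle-rich libraries 0.53. Counts per gene do not separate the spliced from the unspliced form.

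Xbp1 is also known for its high level in plasma cells. Of 7 plasma cell markers 5 were tested, edgeR called 0 of them, and Mzb1 and Tnfrsf17 stayed under 0.1 CPM in every library. Their summed CPM was 6.92, 5.66, 9.92, 10.03 and 8.56 in Cre+ mice, against 7.43, 10.9, 15.9, 8.82 and 6.91 in Cre- mice. The library with the highest sum, Cre- 3, was also the highest Cre- library for Xbp1, while Cre+ 3 had a sum inside the range of the other mice. Most of the sum in Cre- 3 came from Ighm (11.5 CPM) and Sdc1 (3.55 CPM), both highest there. Jchain was 0.385 CPM in Cre- 3, against 0.198 to 0.705 CPM in the other Cre- mice, and Mzb1 had 0 CPM there. Fibroblast markers were highest in Cre+ 3 (854 summed CPM, against 369 to 629 in the other Cre+ and 387 to 715 in Cre- mice). B cell markers (5 listed, all tested) had a median log2 FC of 1.09, with 0 called by edgeR. At an unadjusted p under 0.05 from edgeR 3 of the 5 were higher, against 12.3% of all genes in either direction. Their summed CPM was low, at 1.95, 2.18, 2.77, 3.00 and 1.56 in Cre+ mice, against 0.927, 1.71, 1.19, 1.33 and 2.12 in Cre- mice. The groups overlapped, with Cre- 5 above Cre+ 1 and Cre+ 5, and Cre- 2 above Cre+ 5. The part of these cell types in the level of Xbp1 was not tested.

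The sensor genes themselves differed little. Ern1, the kinase and RNase that splices Xbp1 mRNA, had 16.8, 19.1, 15.1, 16.1 and 17.2 CPM in Cre+ mice, against 18.4, 16.6, 17.0, 16.6 and 17.8 CPM in Cre- mice. The Cre+ mice held both the highest and the lowest value, and the log2 FC was -0.04 (95% interval -0.21 to 0.13). Eif2ak3, the kinase that phosphorylates eIF2α and so slows translation, had 14.7, 15.5, 14.1, 13.3 and 14.9 CPM in Cre+ mice, against 14.7, 13.3, 12.9, 12.6 and 13.6 CPM in Cre- mice. The groups overlapped through Cre+ 4 and Cre- 1, with a log2 FC of 0.11 (95% interval -0.06 to 0.28).

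Atf6 encodes a transcription factor held in the ER membrane until it is cut in the Golgi. It had 54.2, 64.9, 51.6, 53.8 and 51.4 CPM in Cre+ mice, against 53.9, 47.4, 54.5, 61.7 and 62.2 CPM in Cre- mice. Cre+ 2 was high and the other 4 Cre+ mice lay inside the Cre- range (log2 FC -0.02, 95% interval -0.21 to 0.17). Its relative Atf6b had 20.7, 18.7, 18.5, 24.1 and 21.5 CPM in Cre+ mice, against 23.4, 20.5, 21.1, 20.8 and 21.4 CPM in Cre- mice. For Atf6b the Cre+ mice spread more widely than the Cre- mice, and the log2 FC was -0.05 (95% interval -0.23 to 0.13).

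**Figure D3:**
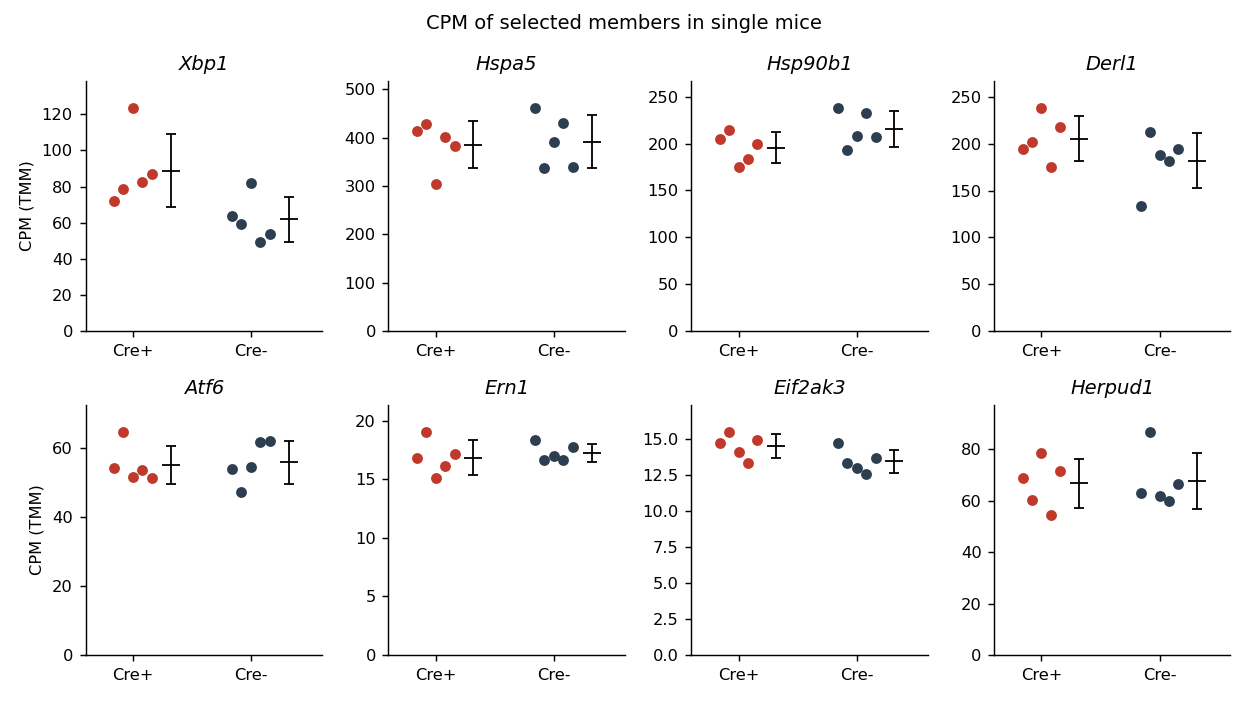
CPM of 8 members in single mice, Cre+ (red) left of Cre- (dark blue), with mean and SD (n = 5) beside the points, which run in replicate order. Xbp1 has its highest value of 123.5 CPM in Cre+ 3, the mouse in which Hspa5 and Hsp90b1 are lowest (304 and 175 CPM).

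Among the chaperones, Hspa5 had 413, 428, 304, 401 and 383 CPM in Cre+ mice, against 462, 337, 390, 430 and 339 CPM in Cre- mice. The lowest value was that of Cre+ 3, and the other Cre+ mice lay inside the Cre- range. Its log2 FC was -0.02 (SE 0.11, 95% interval -0.26 to 0.21), and it turned to 0.05 without Cre+ 3, to 0.04 without Cre- 1 and to 0.02 without Cre- 4. Hsp90b1, the Hsp90 of the ER, had 205, 215, 175, 184 and 199.9 CPM in Cre+ mice, against 238, 193, 208, 233 and 207 CPM in Cre- mice. Cre+ 3 and Cre+ 4 were lowest and Cre- 1 and Cre- 4 highest, with overlap between them (log2 FC -0.14, 95% interval -0.31 to 0.03). Hsp90b1 shares 415 exon bases with 1810014B01Rik on the other strand.

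The lectin chaperones Calr and Canx hold glycoproteins until they are folded. Calr had 283, 266, 252, 246 and 286 CPM in Cre+ mice, against 276, 254, 251, 297 and 268 CPM in Cre- mice, with wide overlap (log2 FC -0.01, 95% interval -0.16 to 0.14). Canx had 221 ± 26.5 CPM in Cre+ mice, against 248 ± 20.4 CPM in Cre- mice (log2 FC -0.17, 95% interval -0.36 to 0.02). Pdia3, the disulfide isomerase that works with both lectins, had a log2 FC of -0.15 (95% interval -0.32 to 0.02), and Uggt1, which returns unfolded glycoproteins to them, -0.09 (95% interval -0.25 to 0.08).

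Enzymes of the protein disulfide isomerase family make and rearrange disulfide bonds. Pdia4 had 25.9, 27.4, 34.6, 27.4 and 31.2 CPM in Cre+ mice, against 32.2, 36.5, 31.6, 35.9 and 30.5 CPM in Cre- mice. Of the Cre+ mice 3 lay below every Cre- mouse, while Cre+ 3 and Cre+ 5 lay inside the Cre- range (log2 FC -0.19, 95% interval -0.38 to 0.01, unadjusted p = 0.0563, adjusted p = 0.422 from edgeR). P4hb had 80.8 ± 2.88 CPM in Cre+ mice, against 81.1 ± 5.83 CPM in Cre- mice, and Pdia6 had 114 ± 10.9 CPM in Cre+ mice, against 115 ± 3.13 CPM in Cre- mice. Their log2 FCs of 0.00 and -0.01 had intervals of -0.14 to 0.13 and -0.17 to 0.14. Erp44, which retains unfinished proteins in the early secretory pathway, had a log2 FC of -0.14 (95% interval -0.33 to 0.05).

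BiP works with J proteins, which start its ATP cycle, and with exchange factors, which end it. The J proteins Dnajb9, Dnajb11, Dnajc3 and Dnajc10 had log2 FCs of -0.08, -0.02, -0.13 and -0.01. Dnajb11 varied least of all members, with 37.0 ± 1.69 CPM in Cre+ mice, against 37.5 ± 0.625 CPM in Cre- mice and a highest value 1.14 times the lowest. Dnajc3, which also inhibits eIF2α kinases, had 70.2 ± 3.74 CPM in Cre+ mice, against 77.1 ± 5.08 CPM in Cre- mice (95% interval of the log2 FC -0.27 to 0.01, unadjusted p = 0.058). Of the exchange factors, Hyou1 had 114 ± 14.1 CPM in Cre+ mice, against 112 ± 13.7 CPM in Cre- mice (log2 FC 0.03, 95% interval -0.19 to 0.25). Sil1 had 26.6, 25.9, 31.7, 28.0 and 29.3 CPM in Cre+ mice, against 25.9, 29.4, 27.0, 26.8 and 27.9 CPM in Cre- mice. Cre+ 3 was highest and the groups overlapped (log2 FC 0.05, 95% interval -0.11 to 0.20).

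Manf, an ER-resident protein that is secreted when ER calcium falls, had 28.7, 26.0, 26.6, 26.3 and 28.7 CPM in Cre+ mice, against 25.8, 23.9, 24.4, 30.4 and 21.4 CPM in Cre- mice. All Cre+ mice lay inside the wider Cre- range (log2 FC 0.12, 95% interval -0.08 to 0.31), and the log2 FC was 0.06 without Cre- 5 and 0.20 without Cre- 4. Sdf2l1, a partner of J proteins, was low, with 1.26, 1.31, 1.33, 1.68 and 1.43 CPM in Cre+ mice, against 1.82, 1.33, 1.57, 2.51 and 1.16 CPM in Cre- mice. Cre- 4 was highest and Cre- 5 lowest, and the interval of its log2 FC of -0.26 was wide, from -0.70 to 0.17. Without Cre- 4 the log2 FC of Sdf2l1 was -0.07. Creld2, an ER stress-inducible protein, had 12.2 ± 1.13 CPM in Cre+ mice, against 11.8 ± 1.71 CPM in Cre- mice (log2 FC 0.05). Hspa13, an Hsp70 family member of the microsomes, had 19.9 ± 1.76 CPM in Cre+ mice, against 22.0 ± 1.06 CPM in Cre- mice (log2 FC -0.14, 95% interval -0.31 to 0.02).

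Taking the 20 chaperones and folding enzymes by role, 16 had a log2 FC below 0 and 4 above it, with a median of -0.05. Their summed level was 1897 ± 119.5 CPM in Cre+ mice and 1987 ± 141.5 CPM in Cre- mice (SD, n = 5 each). The corresponding medians of the sensors and of the degradation genes were -0.02 and 0.01. No test was made of these lists.

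In ER-associated degradation, misfolded glycoproteins are trimmed, recognized by lectins, moved back to the cytosol and marked with ubiquitin. Syvn1, the ubiquitin ligase of the pathway, had 44.8 ± 7.73 CPM in Cre+ mice, against 43.7 ± 6.88 CPM in Cre- mice (log2 FC 0.04, 95% interval -0.24 to 0.32). Sel1l, which holds the ligase complex together, had 74.2, 75.7, 75.9, 84.8 and 68.7 CPM in Cre+ mice, against 79.9, 75.9, 79.8, 78.1 and 77.4 CPM in Cre- mice. Cre+ mice held the highest and the lowest value, and the log2 FC was -0.04 (95% interval -0.18 to 0.09). Os9, a lectin that delivers glycoproteins to this complex, had 66.9 ± 4.91 CPM in Cre+ mice, against 61.4 ± 3.57 CPM in Cre- mice (log2 FC 0.12, 95% interval -0.02 to 0.27). Herpud1, a stress-inducible component of the complex, had 66.9 ± 9.50 CPM in Cre+ mice, against 67.7 ± 11.0 CPM in Cre- mice (log2 FC -0.02, 95% interval -0.27 to 0.24).

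The Edem genes encode proteins that trim mannose from misfolded glycoproteins. Edem1 had 72.1, 85.5, 70.7, 75.5 and 67.0 CPM in Cre+ mice, against 70.0, 78.4, 75.7, 82.4 and 78.0 CPM in Cre- mice. Cre+ 2 was highest and Cre+ 5 lowest (log2 FC -0.05, 95% interval -0.21 to 0.11). Edem2 and Edem3 had log2 FCs of 0.04 (95% interval -0.11 to 0.20) and -0.01 (95% interval -0.21 to 0.19).

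The derlins are membrane proteins of the exit channel. Derl1 had 194, 202, 238, 175 and 217 CPM in Cre+ mice, against 133, 212, 188, 182 and 195 CPM in Cre- mice. Cre- 1 was well below the other mice and Cre+ 3 highest, and the log2 FC was 0.17 (95% interval -0.08 to 0.42, adjusted p = 0.582 from edgeR). It was 0.08 without Cre- 1, 0.11 without Cre+ 3 and 0.29 without both muscle-rich libraries. Derl2 had 38.8 ± 3.03 CPM in Cre+ mice, against 39.2 ± 1.27 CPM in Cre- mice (log2 FC -0.02, 95% interval -0.16 to 0.13). Derl3 was barely detected, with 0.423, 0.484, 0.221, 0.479 and 0.315 CPM in Cre+ mice, against 0.445, 0.193, 0.368, 0.266 and 0.264 CPM in Cre- mice. The groups overlapped, and at this level the interval of its log2 FC of 0.31 ran from -0.32 to 0.94. The log2 FC of Derl3 was 0.48 without Cre- 1, 0.19 without Cre- 2 and 0.10 without both muscle-rich libraries.

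Single mice differed in these genes while the genotypes differed little, with a median size of the log2 FC of 0.05, against 0.14 for all genes tested. The median SE of the members was also smaller, at 0.08 against 0.15, and no genes matched on level were compared. The highest CPM of a member was between 1.14 and 2.50 times its lowest over the 10 libraries, with a median of 1.37. Cre+ 3 held the lowest value of 8 members, among them Hspa5, Hsp90b1, Hyou1, Dnajb9, Erp44 and Syvn1, and the highest of Xbp1, Dnajc10, Sil1 and Derl1. Cre+ 4 held the lowest value of 9 members, among them Calr, Canx, Pdia3, Pdia6, Herpud1 and Derl2. Cre- 1 and Cre- 4 each had 16 of the 20 chaperones above their mean over the mice, against 5 in Cre+ 3, 6 in Cre+ 4 and 5 in Cre- 2. Cre+ 4 and Cre- 2 are the libraries with skeletal muscle transcripts. Cre+ 3 had 14.0 summed CPM of the muscle markers, and the part of muscle in these levels was not tested.

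**Figure D4:**
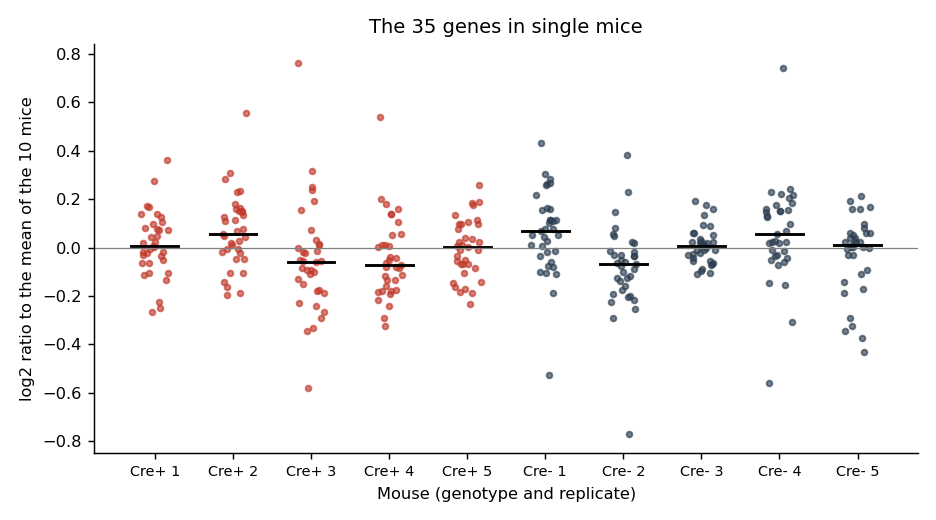
Log2 ratio of each of the 35 members to its mean over the 10 mice, with 1 point per gene and a bar at the median, Cre+ mice (red) left of Cre- mice (dark blue). The medians run from -0.07 in Cre+ 4 to 0.07 in Cre- 1, and each genotype has mice on either side of 0.

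Members with and without the promoter elements shown above were set side by side. The 11 members with an ERSE or ERSE-II had a median log2 FC of -0.02 and a range from -0.17 (Canx) to 0.31 (Derl3). The 18 other members with a promoter window had a median of -0.04 and a range from -0.26 to 0.52. As the median log2 ratio to the mean over the 10 mice, the members with an element lay at 0.07, 0.06, -0.13, -0.11 and -0.01 in Cre+ mice, against 0.12, -0.08, -0.01, 0.07 and 0.00 in Cre- mice. Cre+ 3 and Cre+ 4 were low and Cre- 1 was high, and the groups overlapped.

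The ER members were also set beside the cytosolic chaperones of the same families, whose lower level in Cre+ mice was known when the pairs were chosen. Of 13 cytosolic relatives edgeR called 4 lower (30.8%, against 0.164% of all genes), namely Hsp90aa1, Hsp90ab1, Hspa4l and Dnajb4. DESeq2 called 8 of the 13 lower, against 2.28% of all genes, and voom 9, against 0.837%. At an unadjusted p under 0.05, 9 were lower by edgeR, against 12.3% of all genes in either direction. None of these counts of relatives held a gene that was higher. Their median log2 FC was -0.83. Ratios of counts within a library are given as a description, with no test, because their denominators were chosen with that fall known. A ratio sets genes of different length against each other, so only its difference between mice can be read.

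The ratio of Hsp90b1 to Hsp90aa1 plus Hsp90ab1 was 0.163, 0.175, 0.200, 0.133 and 0.171 in Cre+ mice, against 0.114, 0.102, 0.123, 0.128 and 0.107 in Cre- mice. The difference was 0.54 on the log2 scale (SE 0.11), beside log2 FCs of -0.14 for Hsp90b1, -1.09 for Hsp90aa1 and -0.60 for Hsp90ab1. The ratio of Hspa5 to Hspa8, Hspa1a and Hspa1b was 0.703, 0.630, 0.910, 0.691 and 0.720 in Cre+ mice, against 0.387, 0.469, 0.441, 0.434 and 0.400 in Cre- mice. The difference was 0.77 on the log2 scale (SE 0.10), beside log2 FCs of -0.02 for Hspa5 and -0.71 for Hspa8. The 3 Hsp70 relatives had log2 FCs from -2.48 to -0.71, with SEs from 0.18 to 1.27. Of these 3, edgeR called 0 (lowest adjusted p = 0.156), DESeq2 1 and voom 2. In both pairs the groups did not overlap, and the ER gene had a log2 FC nearer to 0 than its relatives.

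The ratio of Hyou1 to Hsph1, Hspa4 and Hspa4l was 0.429 ± 0.0158 in Cre+ mice and 0.250 ± 0.0342 in Cre- mice, and that of Dnajb9 plus Dnajb11 to Dnajb1, Dnajb4, Dnajb5, Dnaja1 and Dnaja2 was 0.359 ± 0.0537 in Cre+ mice and 0.231 ± 0.0192 in Cre- mice (SD, n = 5 each). The differences were 0.79 (SE 0.09) and 0.62 (SE 0.12) on the log2 scale, and the groups did not overlap. Against Hspa4 alone, its most abundant relative, the Hyou1 difference was 0.15 on the log2 scale. Hspa4 had a log2 FC of -0.12 (SE 0.07, adjusted p = 0.547 from edgeR). Hsph1 had 21.0 to 92.5 CPM in Cre+ mice, against 136 to 299 CPM in Cre- mice, and a log2 FC of -1.82 (SE 0.39), with an adjusted p = 0.123 from edgeR, 0.000632 from DESeq2 and 0.00949 from voom.

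**Figure D5:**
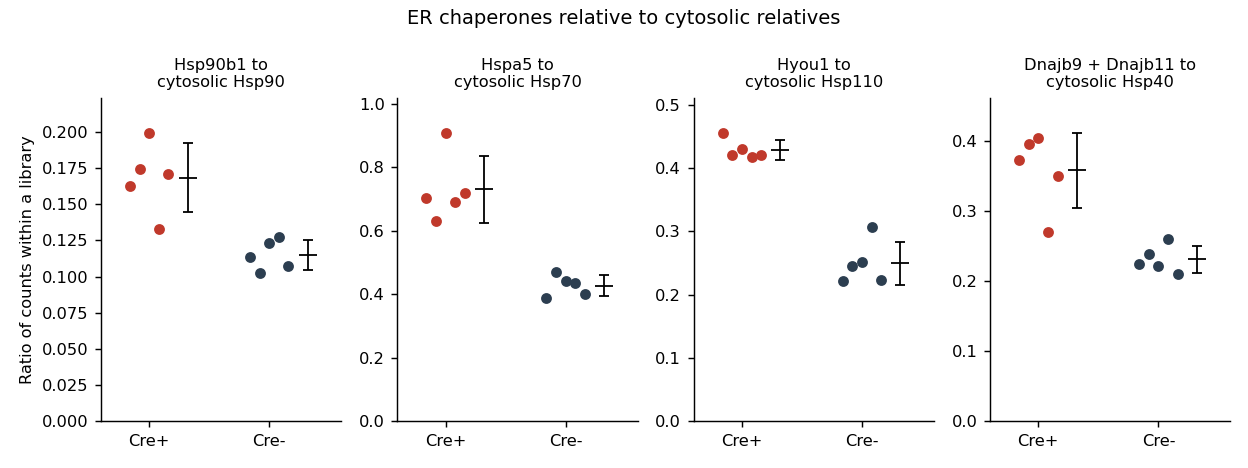
Ratio of the counts of an ER chaperone to the summed counts of its cytosolic relatives in single mice, Cre+ (red) left of Cre- (dark blue), with mean and SD (n = 5). In each of the 4 pairs all Cre+ points lie above all Cre- points, for Hspa5 at 0.630 to 0.910 against 0.387 to 0.469.

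A wider list of 95 other genes of protein folding, translocation, glycosylation, degradation and export in the ER and of UPR signalling gave 0 calls among the 94 tested, by edgeR, DESeq2 and voom, against the same shares of all genes as given for the members. Ern2, a relative of Ern1 known from epithelia, was not tested. At an unadjusted p under 0.05 from edgeR, 2 of the 94 had a positive and 3 a negative log2 FC, against 12.3% of all genes in either direction. The median of the list was -0.01. Txndc11, a thioredoxin-like protein, and Rnf5, a ubiquitin ligase of the ER membrane, had 0.21 each (adjusted p = 0.36 and 0.395 from edgeR). Pdia5, a disulfide isomerase, had -0.28 (SE 0.11, adjusted p = 0.351 from edgeR), Erlin1, which directs degradation of an ER calcium channel, -0.36 (SE 0.14, adjusted p = 0.325 from edgeR), and Erlec1, a lectin of the degradation pathway, -0.14 (SE 0.06, adjusted p = 0.382 from edgeR).

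Targets of the PERK branch belong to the same list. Atf4, a transcription factor translated when eIF2α is phosphorylated, had 122 ± 35.7 CPM in Cre+ mice, against 122 ± 20.5 CPM in Cre- mice. Ddit3, its target that encodes CHOP, had 22.9 ± 3.91 CPM in Cre+ mice, against 24.4 ± 2.44 CPM in Cre- mice (log2 FC -0.09, SE 0.11, adjusted p = 0.782 from edgeR). Trib3, another target, had 7.82, 7.79, 7.13, 3.19 and 6.90 CPM in Cre+ mice, against 4.92, 8.18, 4.45, 4.92 and 4.26 CPM in Cre- mice. The muscle-rich Cre+ 4 was lowest and the muscle-rich Cre- 2 highest for Trib3, and edgeR called it when both were left out. Atf4, Ddit3 and Trib3 were named after their values were seen.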

How the data were processed

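Counts per gene of 10 iBAT libraries were used. According to the labels and the submitters' processing notes, Trimmomatic was used for trimming, STAR for alignment to GRCm39 and featureCounts 2.0.1 for counting, and the version of Trimmomatic or STAR is not given in the sources used here. The authors deposited raw counts for GENCODE vM28. Mates were counted singly, strand was ignored and reads with several alignments were dropped, so that overlapping genes and near-identical copies are uncertain. Among the members, 10 share exon bases with another gene. The RNA kit is RNeasy in the labels and PeqGOLD in the paper's methods. Symbols were matched by gene identifier for 52080 genes (94.0%).

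Samples were grouped by genotype. Nothing beyond the labels says how the mice were housed or bred together, and p-values measure the spread between these libraries. Fits were made in R 4.3.3 with edgeR 4.0.16, using TMM, filterByExpr (minimum count 10, minimum total count 15), robust quasi-likelihood fits and Benjamini-Hochberg adjustment over the 17690 genes tested. The SE is the size of the log2 fold change divided by the square root of F, and intervals are 95% intervals from that SE. Ratios of counts are given without a test. Alternatives were DESeq2 1.42.0 (the tool of the paper), voom with quality weights in limma 3.58.1, other scalings and filters, the replicate number as a block, and libraries left out.

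The members and lists, the pairs for the ratios and the left-out libraries were chosen with earlier results of these data known. Values per library are given for RetSat, for Hspa5, Hsp90b1, Xbp1, Atf6, Ern1 and Eif2ak3, for members with an unadjusted p under 0.05, for the 2 highest and 2 lowest log2 fold changes of each role and for the 3 members with the highest level per length; of the other pathway genes, those with an unadjusted p under 0.05 are named. Promoter sequences come from RefSeq (GRCm38.p6). Protein sequences were not analysed here.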

Additional observations from a re-analysis of the deposited data

Results flagged for a closer look

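In each genotype, the highest and lowest library were compared with the next by Dixon's criterion for RetSat and the 35 members. Of 72 groups tested, 5 held a library far from the other 4, and chance flags about 1 group in 20.

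RetSat was 39.0 CPM in Cre+ 3, against 18.01 to 23.0 CPM in the other Cre+ mice. Atf6 was 64.9 CPM in Cre+ 2, against 51.4 to 54.2 CPM in the other Cre+ mice. Derl2 was 33.5 CPM in Cre+ 4, against 39.2 to 40.9 CPM in the other Cre+ mice. Herpud1 was 87.0 CPM in Cre- 2, against 60.0 to 66.5 CPM in the other Cre- mice, and Edem3 was 43.2 CPM in Cre- 2, against 51.1 to 53.9 CPM in the other Cre- mice. Cre+ 4 and Cre- 2 are the muscle-rich libraries, with 284 and 572 summed CPM of the muscle markers, and their muscle content was not tested as a cause.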

How the results depend on the processing

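Of 458 values under alternative settings, 425 kept their direction and side of the threshold or stayed within 1.5 times of the count. Of the rest, 14 counts moved by more, 14 log2 fold changes turned sign and 5 ratio values were weaker. The weaker ones were Hyou1 against Hspa4 alone and the 4 pairs with the replicate block, the pairs by a p that is not given here. The causes were not tested. The count of called members was 0 throughout, and the median log2 fold change of the members ranged from -0.03 to 0.00. Over all genes, DESeq2 called 393, voom 148, edgeR without a filter 92 and without both muscle-rich libraries 289. Leaving out 1 library gave 9 (without Cre+ 1) to 331 (without Cre+ 4), with 10 without Cre+ 5 and 13, 15, 12 and 11 without Cre- 1, 3, 4 and 5. In the wider pathway list 1 gene was called without Cre+ 4 (Creb3l2) and 1 without both muscle-rich libraries (Trib3). Log2 fold changes near 0 turned sign: Calr was 0.0085 by voom, and without the lettered Cre+ libraries Atf6 was 0.0532 and Edem1 0.0168. Leaving out 1 library gave -0.0686 to 0.0502 for Hspa5, -0.0833 to 0.0226 for Atf6, -0.0393 to 0.0299 for Calr and -0.0003 to 0.0779 for Sil1.

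Same-numbered Cre+ and Cre- libraries had correlations of deviations from -0.20 to 0.22, and differently numbered ones from -0.25 to 0.22. These correlations cannot settle whether the numbers pair the samples, and the labels do not say. With the replicate block, edgeR called 23 genes and 0 members, and Xbp1 had 0.52 with an adjusted p of 0.0759. The SE of Xbp1 was 0.09 with the block and 0.16 without it. Its unadjusted p from edgeR was 0.000189 with the block and 0.00841 without it. The differences of the ratios, given without a test, were 0.54 (Hsp90b1), 0.77 (Hspa5), 0.79 (Hyou1) and 0.62 (Dnajb9 plus Dnajb11). Their means within blocks equal these values by arithmetic, so the block does not check their size. Against Hspa4 alone the Hyou1 difference was 0.15. With only bases before the start site, ERSE-II was found in 1 member. Derl3 had 17 to 58 counts per library, and Sdf2l1 110 to 292.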
